A study of Mus musculus with 7 samples.

Results

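Skeletal muscle fibre genes were followed in wound-edge tissue, labelled d5 and taken here as skin at day 5, from C57BL/6 mice that carried or lacked MFG-E8, the secreted protein that bridges dying cells to phagocytes. The set held 40 genes chosen by name as structural, calcium handling, metabolic and regulatory genes of striated muscle, out of 18193 genes on the array. All 40 were measured, by 67 of the 45037 probe sets tested, where only probe sets annotated to a single gene symbol were taken. There were 3 MFG-E8 WT animals (numbers 2, 3 and 4) and 4 MFG-E8 KO animals (numbers 8, 10, 11 and 12), all C57BL/6, with 1 array of total RNA an animal and no other treatment, sex, age or batch named in the labels. The knockout is named only as MFG-E8 KO, so nothing more is known here of the allele or of the breeding of the WT animals.

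All values are centred log2 values: the submitters' GCRMA values with a constant per probe set subtracted from all arrays. The origin of that constant is not given in the sources used here, so the values of different genes say nothing of which is the more abundant. Every difference is given as KO minus WT on the log2 scale with its standard error (SE). Values of single animals are listed in the order 2, 3 and 4 for WT and 8, 10, 11 and 12 for KO. A coarse band of level could be read from how finely each stored number was rounded. Of the member probe sets, 45 of 67 lay at a log2 level of at least 8, 18 between 4 and 8, and 4 below 4, against 26.2%, 54.4% and 19.5% of all probe sets. Member probe sets thus lay in the highest band more often than all probe sets did. The median SE was 0.36 for the 40 genes, against 0.14 for all genes. The larger SE of the muscle genes reflects a wider spread between animals of a group. The number of arrays limits the precision for all genes alike.

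Muscle fibres contract when calcium, released from the sarcoplasmic reticulum through the ryanodine receptor, binds troponin on the thin filament and lets myosin pull on actin. Fast and slow fibres use different myosin, troponin and regulatory proteins, encoded by paired genes, so that their transcripts report fibre type. In mouse skin the known source of striated muscle is the panniculus carnosus, a thin and mostly fast muscle sheet under the dermis, and regenerating muscle passes through satellite cells and young fibres with embryonic isoforms.

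RefSeq promoter windows of GRCm38.p6 were matched by symbol for 29 of the 40 genes, and the 250 bases before the start site were searched on both strands. Shown first are the neighbouring fast myosin genes Myh2, Myh1 and Myh4 of chromosome 11, whose differences between genotypes were unlike. Acta1, the thin filament actin, varied least between animals. Ckmt2 and the slow troponin gene Tnnc1 had unadjusted p-values under 0.05, and Myog stands for the regulators. Capitals mark CAGCTG (an E-box form), then CATTCC (the core of the MCAT element), then the TATA box core TATAAA, and matches to the MEF2 and CArG (serum response factor) consensus. Each was sought on either strand, and a TATA box core and a MEF2 match can share bases.
Myh2 (chr11:67170777-67171026, plus strand): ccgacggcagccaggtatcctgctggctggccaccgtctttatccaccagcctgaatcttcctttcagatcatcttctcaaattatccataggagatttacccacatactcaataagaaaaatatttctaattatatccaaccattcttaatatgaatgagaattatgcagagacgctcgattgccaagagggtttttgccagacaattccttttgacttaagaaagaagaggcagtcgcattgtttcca
Myh1 (chr11:67199852-67200101, plus strand): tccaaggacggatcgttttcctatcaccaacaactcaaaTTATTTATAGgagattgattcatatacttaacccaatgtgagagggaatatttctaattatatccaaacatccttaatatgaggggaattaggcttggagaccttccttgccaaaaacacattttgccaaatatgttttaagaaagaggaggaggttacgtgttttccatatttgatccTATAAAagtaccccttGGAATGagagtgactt
Myh4 (chr11:67237562-67237811, plus strand): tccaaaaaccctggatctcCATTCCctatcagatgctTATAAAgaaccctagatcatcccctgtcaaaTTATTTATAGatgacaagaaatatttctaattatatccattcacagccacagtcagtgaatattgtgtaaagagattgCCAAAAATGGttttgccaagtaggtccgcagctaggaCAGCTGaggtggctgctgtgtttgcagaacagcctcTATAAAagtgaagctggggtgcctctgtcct
Acta1 (chr8:123894776-123895025, minus strand): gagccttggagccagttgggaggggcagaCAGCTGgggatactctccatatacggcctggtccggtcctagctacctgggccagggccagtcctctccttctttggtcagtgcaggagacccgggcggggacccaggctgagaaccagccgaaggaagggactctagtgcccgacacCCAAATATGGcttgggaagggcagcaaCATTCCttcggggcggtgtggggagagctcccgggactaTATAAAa
Ckmt2 (chr13:91876886-91877135, minus strand): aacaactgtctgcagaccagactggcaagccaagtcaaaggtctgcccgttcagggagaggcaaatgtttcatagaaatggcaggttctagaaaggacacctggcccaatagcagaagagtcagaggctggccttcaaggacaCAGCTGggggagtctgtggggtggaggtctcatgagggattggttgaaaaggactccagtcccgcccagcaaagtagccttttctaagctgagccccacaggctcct
Tnnc1 (chr14:31208062-31208311, plus strand): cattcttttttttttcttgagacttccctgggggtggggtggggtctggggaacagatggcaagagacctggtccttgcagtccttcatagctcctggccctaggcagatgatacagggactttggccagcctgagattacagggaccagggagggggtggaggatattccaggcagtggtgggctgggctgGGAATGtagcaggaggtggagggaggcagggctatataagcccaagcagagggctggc
Myog (chr1:134289754-134290003, plus strand): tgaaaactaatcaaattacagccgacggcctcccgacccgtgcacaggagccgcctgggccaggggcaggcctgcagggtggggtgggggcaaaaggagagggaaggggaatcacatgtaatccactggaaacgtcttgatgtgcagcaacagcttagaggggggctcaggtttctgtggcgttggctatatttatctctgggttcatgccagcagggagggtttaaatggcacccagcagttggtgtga
CAGCTG was present in 13 of the 29 member windows (44.8%) and in 13% of all 32851 windows of the same length. Only the first listed window of each member was taken, also where a gene had several, such as Mb with 3. The 32851 hold every listed window of each gene, so the shares are not fully alike in kind. The looser E-box CANNTG, of which the first motif is a form, was in 24 member windows (82.8%, against 66.2% of all windows). CATTCC was in 10 (34.5%, against 12.6%) and the TATA box core in 5 (17.2%, against 12.4%). The MEF2 consensus was in 4 (13.8%, against 1.69%) and that of CArG in 3 (10.3%, against 1.47%). The Myh4 window held all of these and the Myh2 window none. These are matches of letters and not measured binding sites.

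Mfge8 was lower in every KO animal, at -0.64, -0.96, -1.14 and -1.30 in KO animals 8, 10, 11 and 12 against 0.91, 0.76 and 1.0 in WT animals 2, 3 and 4. Its difference was -1.90 (SE 0.16, limma adjusted p = 0.0169), the direction that the labels give. Array medians ran from -0.0044 to 0.012. At an adjusted p under 0.05, 5 of the 18193 genes (0.0275%) and 20 of the 45037 probe sets (0.0444%) passed. Krt5 and Krt14, the keratins of the basal epidermis, lay at a level of at least 8.

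Muscle genes were lower in KO on average in 39 of 40, where 49.1% of all genes were, but none passed an adjusted p of 0.05 in limma (0 of 40, where 3 genes, 0.0165% of all, passed as lower). The smallest adjusted p was 0.406, for Myl2. The median difference was -0.68 for 14 fast fibre genes, -0.66 for 7 slow fibre genes and -0.49 for 16 genes used by both fibre types, but -0.092 for the 3 myogenic transcription factors, beside a median of 0.0038 over all genes. Below -0.5 lay 25 of the 40, namely 11 fast, 6 slow and 8 shared genes, against 4.49% of all genes. At an unadjusted p under 0.05, 4 were lower (Myl1, Myl2, Tnnc1 and Ckmt2) and 0 higher, where 5.94% of all genes were lower and 2.26% higher. Every KO animal lay below every WT animal for 3 (Myl2, Myh7 and Ckmt2) and above for 0, where 5.14% and 3.3% of all genes did so. Well expressed genes are the closer background, since 35 of the 40 lay at a level of at least 8. Of the 7551 genes at that level 58.2% were below 0, 5.64% below -0.5, and 6.65% had every KO animal below every WT animal. Of the 3 genes without overlap only Ckmt2 lay at that level, while Myl2 and Myh7 lay between 4 and 8. The 3 of 40 are thus set beside the 5.14% of all genes, and were near that share. In whole tissue, fewer fibres in the sample and less RNA per fibre cannot be told apart. The genes share their fibres and are not independent of each other.

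**Figure D1:**
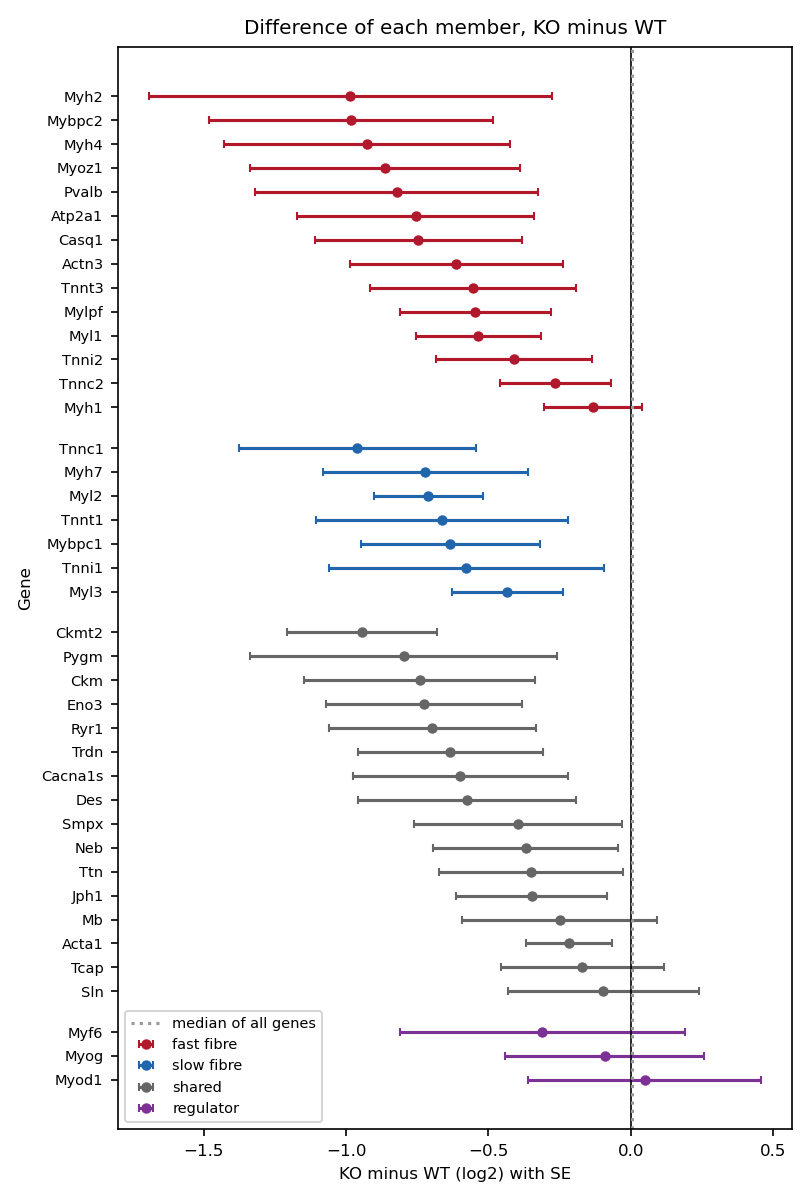
Difference between KO and WT animals in log2 units (horizontal axis) for each of the 40 muscle genes (vertical axis), as points with SE bars, coloured by class, with the median of all genes as a dotted line. All genes but Myod1 lie below 0, from -0.98 for Myh2 to -0.092 for Myog.

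The spread between animals was as large as the difference between genotypes, and it had a clear order. Class medians of the fast genes were -0.32, 0.46 and 0.22 in WT animals 2, 3 and 4 and -1.18, -0.65, 0.059 and -0.047 in KO animals 8, 10, 11 and 12. All 14 fast genes were below 0 in KO animals 8 and 10, and all 14 also in WT animal 2, whereas none was in WT animal 3. KO animals 11 and 12 lay within the WT range. For the slow genes the medians were 0.13, 0.86 and 0.028 in WT and -0.40, -0.43, -0.23 and -0.012 in KO, so that every KO median was below every WT median, by a gap between KO animal 12 and WT animal 4 far smaller than the spread within either group. WT animal 3 was the highest animal for all 7 slow genes and for 28 of the 40 genes, and KO animal 8 the lowest for 27.

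**Figure D2:**
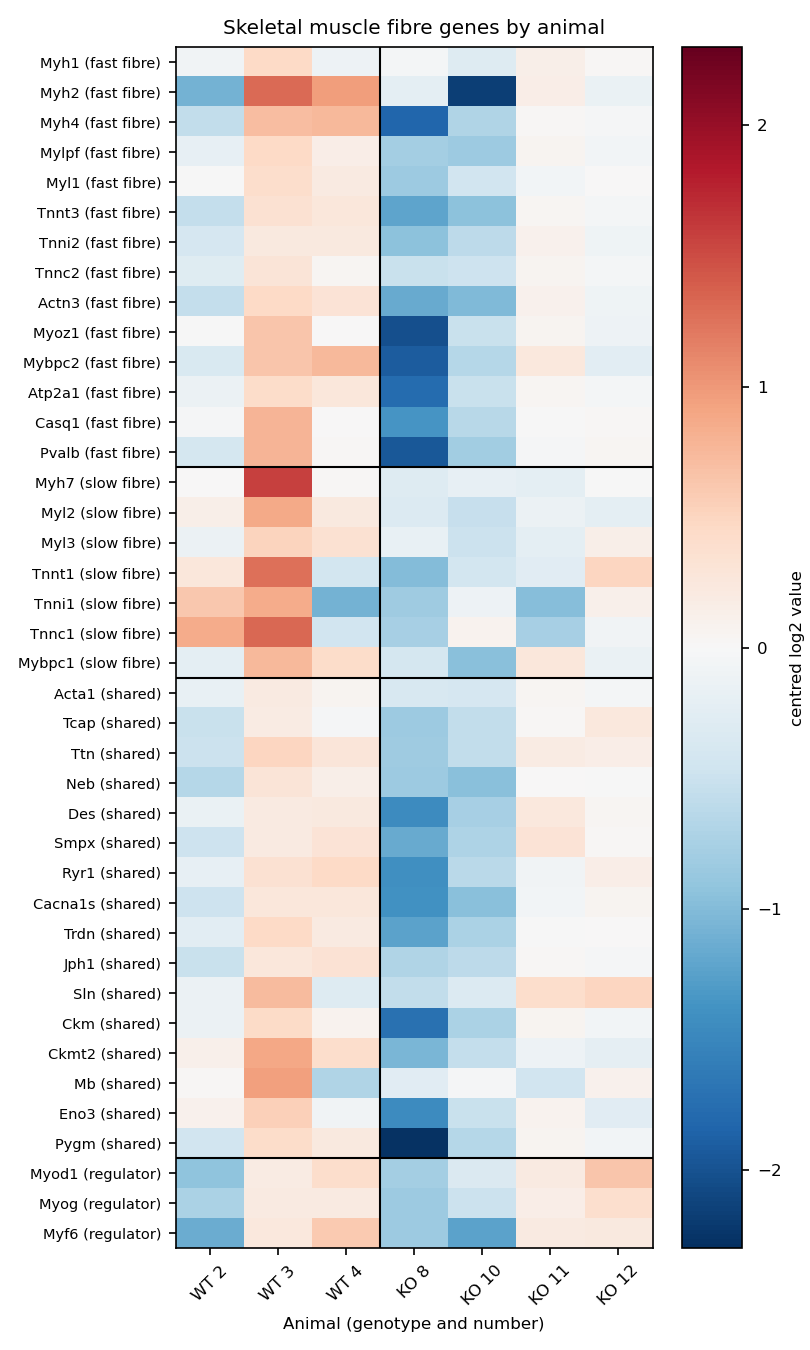
Centred log2 value (colour) of each of the 40 muscle genes (rows, with the class in brackets) in each animal (columns, WT left of the line, KO right). KO animal 8, with all 40 genes below 0, KO animal 10, with 39 below 0, and WT animal 2, with 32 below 0, appear blue in most rows, while KO animals 11 and 12 are near 0.

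**Figure D3:**
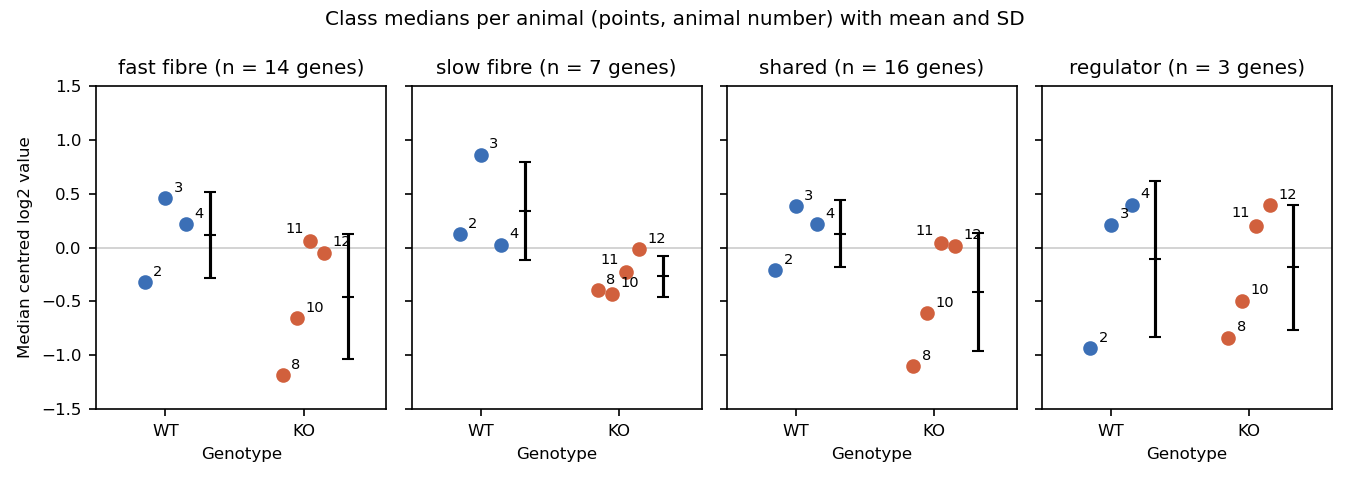
Median centred log2 value over the genes of a class (vertical axis) for each animal (points with animal number) by genotype, with mean and SD of the animals as bars. The fast, shared and regulator medians of WT and KO overlap, while those of the 7 slow genes do not.

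The median differences depended on which animals were included. Among the KO animals, 8 and 10 had the lowest medians in every class, so leaving both out was bound to raise the KO medians. Their removal is therefore no independent check, and gives only how much of each difference came from these animals. Without KO animals 8 and 10 the fast median was -0.16, the shared median -0.027 and the regulator median 0.38, whereas the slow median was -0.56. Without KO animal 8 alone the fast median was -0.40 and the shared median -0.25. Without WT animal 3 the slow median was -0.30 and that of the regulators 0.066. The number of genes with every KO animal below every WT animal was 24 without WT animal 2 (8.67% of all genes in that comparison) and 6 without WT animal 4 (11.9%), and 5 in the absence of KO animal 11 (6.61%) or 12 (9.53%). The number lower at an unadjusted p under 0.05 was 12 without WT animal 2 (4.25% of all genes), 10 when KO animal 11 was left out (5.13%) and 8 when KO animal 12 was (6.91%). It was 2 when WT animal 3 (3.71%) or KO animal 8 (5.6%) was left out, and 13 with array weights (10.3%).

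Hair follicle genes varied with this order of animals. Their list median was 0.86, -1.75 and -2.70 in WT animals 2, 3 and 4 and 4.13, 4.06, -2.71 and -0.86 in KO animals 8, 10, 11 and 12, so the 3 animals with the highest hair medians (KO 8, KO 10 and WT 2) were the 3 with the lowest fast fibre medians. All 21 measured hair genes of 23 listed were higher in KO on average, with 0 passing and 0 at an unadjusted p under 0.05. Without KO animals 8 and 10, whose hair medians were the highest, that direction turned, with 19 of 21 lower and a median of -0.43. Once the mean of the hair genes was added as a covariate, the median difference was -0.29 for fast, -0.59 for slow and -0.11 for shared genes, and 32 of 40 genes had a difference below 0. Dermal adipocyte genes had medians of -0.59, 0.41 and -0.013 in WT and -0.35, -0.22, 0.056 and -0.011 in KO, with 8 of 12 lower in KO and 0 passing (0 at that p), and a median difference of -0.17 that was 0.029 without KO animals 8 and 10. Endothelial genes were lower in KO in 15 of 15, with medians of 0.11, 0.62 and 0.25 in WT and -0.55, -0.51, -0.18 and -0.17 in KO. None of them passed, all 15 had an unadjusted p under 0.05 (5.94% of all genes were lower at that p), and 13 of 15 had every KO animal below every WT animal (5.14% of all genes). Their median difference was -0.68, and -0.49 without KO animals 8 and 10, again with 15 of 15 lower. With array weights 1 endothelial gene passed in limma (adjusted p = 0.0285). Lower values in KO were thus also seen outside the muscle genes. The hair medians were by far the highest in KO animals 8 and 10, so the covariate cannot be told apart from other traits of these animals. The part of these cells in the muscle result was not tested.

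Among fast fibre genes, the myosin heavy chains, the motors of the thick filament, ranged from the widest spread of the 40 genes, in Myh2, to a narrow spread in Myh1. Myh2, the motor of fast oxidative fibres, stood at -1.09, 1.30 and 0.96 in WT and -0.22, -2.17, 0.16 and -0.16 in KO, a range of 3.47. KO animal 10 was far below all others, and WT animal 2 was the next lowest. Its difference was -0.98 (SE 0.71, adjusted p = 0.768). Myh4, the motor of the fastest fibres, was at -0.56, 0.70 and 0.74 in WT and -1.83, -0.69, 0.023 and -0.023 in KO. KO animals 8 and 10 and WT animal 2 were low, with KO animals 11 and 12 between them and the other WT animals. Its difference of -0.93 (SE 0.50, adjusted p = 0.695) came from a pair of probe sets at -0.66 and -1.19. Myh1, of intermediate fast fibres, was at -0.076, 0.46 and -0.12 in WT and -0.037, -0.30, 0.14 and 0.031 in KO, with a difference of -0.13 (SE 0.17) that overlapped throughout. Both probe sets used for Myh1 carry the names _a_at and _x_at, the latter given to probes that can bind related transcripts, and these myosins are close in sequence, so their values cannot be fully separated.

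The fast light chains and troponins varied less than Myh2 and Myh4 and more than Myh1. Mylpf, the regulatory light chain, was at -0.18, 0.46 and 0.15 in WT and -0.78, -0.83, 0.066 and -0.066 in KO (difference -0.55, SE 0.27, adjusted p = 0.653). Myl1, the alkali light chain, was at -0.017, 0.41 and 0.21 in WT and -0.84, -0.44, -0.065 and 0.017 in KO. KO animals 11 and 12 were near 0, next to WT animal 2, and the difference of -0.54 (SE 0.22, adjusted p = 0.579) had the smallest p among the fast genes. Tnnt3, Tnni2 and Tnnc2 encode the tropomyosin-binding, inhibitory and calcium-binding subunits of fast troponin. Tnnt3 was at -0.55, 0.34 and 0.27 in WT and -1.20, -0.93, 0.037 and -0.037 in KO, Tnni2 at -0.38, 0.22 and 0.22 in WT and -0.95, -0.61, 0.098 and -0.098 in KO, and Tnnc2 at -0.28, 0.29 and 0.046 in WT and -0.51, -0.48, 0.061 and -0.046 in KO. In each of them KO animals 8 and 10 were the lowest and WT animal 2 the next, and the differences were -0.55 (SE 0.36), -0.41 (SE 0.27) and -0.26 (SE 0.20), with adjusted p from 0.742 to 0.776.

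KO animals 8 and 10 were also the lowest animals in the other fast genes. Actn3, the fast Z-disc actinin, was at -0.56, 0.45 and 0.31 in WT and -1.16, -1.01, 0.095 and -0.095 in KO (difference -0.61, SE 0.37). Atp2a1, the calcium pump that relaxes fast fibres, was at -0.13, 0.43 and 0.26 in WT and -1.77, -0.52, 0.048 and -0.048 in KO (difference -0.76, SE 0.42). Pvalb, the calcium buffer parvalbumin, was at -0.40, 0.78 and 0.032 in WT and -1.94, -0.80, -0.032 and 0.042 in KO (difference -0.82, SE 0.50). KO animal 8 was the lowest for all 3 genes, and KO animals 11 and 12 lay within the WT range. The calcium store protein Casq1 (-0.75, SE 0.36), the Z-disc protein Myoz1 (-0.86, SE 0.47) and the fast myosin-binding protein Mybpc2 (-0.98, SE 0.50) had overlapping groups too, with adjusted p from 0.655 to 0.699.

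**Figure D4:**
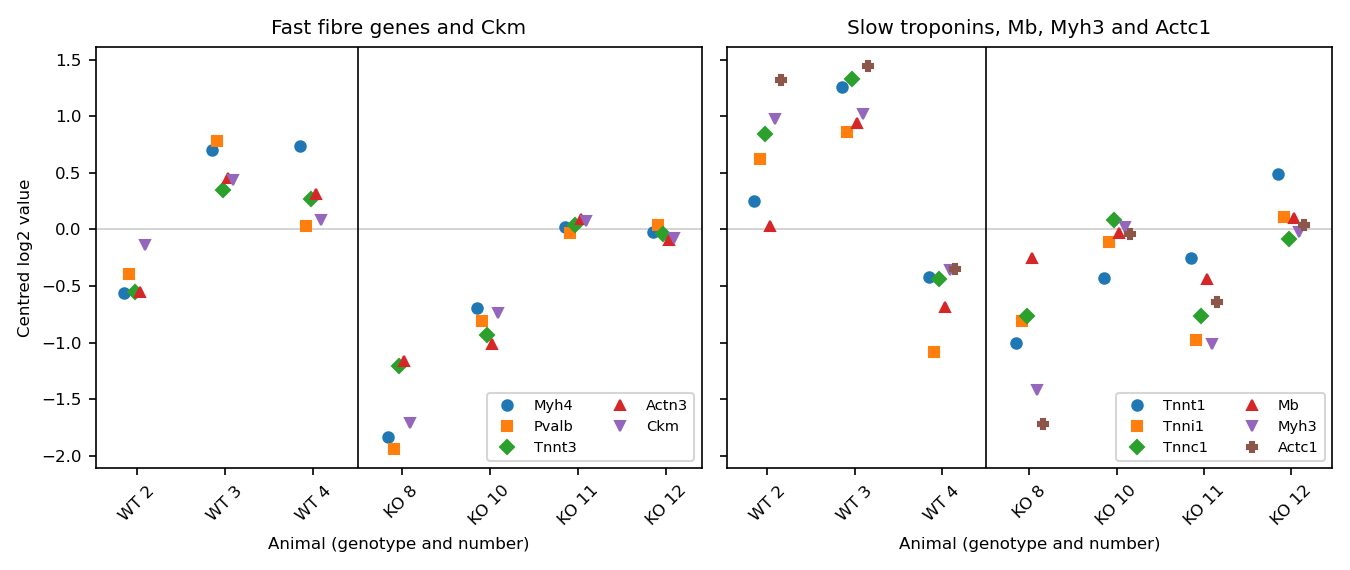
Centred log2 values (vertical axis) in each animal (horizontal axis, WT left of the line) for fast fibre genes with Ckm (left panel) and for slow troponin genes, Mb, Myh3 and Actc1 (right panel). WT animal 2 is low in the left panel and high in the right for most genes, and KO animal 10 is low in the left panel and near 0 in the right, apart from Tnnt1 at -0.43.

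Slow fibre genes split into a myosin part and a troponin part. Myh7, the slow motor, was at 0.012, 1.58 and 0.028 in WT and -0.30, -0.19, -0.23 and -0.012 in KO, so that WT animal 3 alone stood high and WT animals 2 and 4 lay just above the KO animals (difference -0.72, SE 0.36, adjusted p = 0.661). Probe sets annotated to both Myh7 and the heart myosin gene Myh6 were not used. Myl2, the slow regulatory light chain, was at 0.13, 0.86 and 0.23 in WT and -0.32, -0.54, -0.13 and -0.23 in KO. All KO animals lay below all WT animals, as for 5.14% of all genes. The difference of -0.71 (SE 0.19, 1.64-fold lower) had the smallest p of the 40 genes (limma adjusted p = 0.406). Myl3, the slow essential light chain, was at -0.13, 0.52 and 0.35 in WT and -0.17, -0.49, -0.22 and 0.13 in KO (difference -0.43, SE 0.20, adjusted p = 0.632), read here by an _s_at probe set at a level of at least 8, while its other probe sets, between 4 and 8, gave -0.0072 and 0.046. Mybpc1, the slow myosin-binding protein, differed by -0.63 (SE 0.32), with KO animal 10 the lowest and WT animal 3 the highest.

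The slow troponin genes followed another order of animals. Tnnt1, the tropomyosin-binding subunit, was at 0.26, 1.26 and -0.42 in WT and -1.0, -0.43, -0.26 and 0.49 in KO. Tnni1, the inhibitory subunit, was at 0.62, 0.86 and -1.08 in WT and -0.81, -0.11, -0.97 and 0.11 in KO, and Tnnc1, the calcium-binding subunit, at 0.85, 1.33 and -0.44 in WT and -0.76, 0.083, -0.76 and -0.083 in KO. WT animals 2 and 3 were above 0 for all 3 genes and WT animal 4 and KO animals 8 and 11 below it. KO animal 10, below 0 in every fast gene, was at 0.083 for Tnnc1 and -0.11 for Tnni1. The differences were -0.66 (SE 0.44, adjusted p = 0.748), -0.58 (SE 0.48, adjusted p = 0.803) and -0.96 (SE 0.42, adjusted p = 0.609). The fast median minus the slow median within each array was -0.45, -0.40 and 0.19 in WT animals 2, 3 and 4 and -0.79, -0.22, 0.29 and -0.035 in KO animals 8, 10, 11 and 12, with full overlap of the genotypes.

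Embryonic and neonatal muscle isoforms had values like those of the slow troponins. Myh3, the embryonic myosin heavy chain, was at 0.98, 1.02 and -0.35 in WT and -1.42, 0.026, -1.01 and -0.026 in KO (difference -1.16, SE 0.46, adjusted p = 0.564). Actc1, the actin of heart and of developing muscle, was at 1.32, 1.44 and -0.35 in WT and -1.72, -0.042, -0.64 and 0.042 in KO (difference -1.39, SE 0.55, adjusted p = 0.555). WT animals 2 and 3 were high, WT animal 4 and KO animals 8 and 11 low, and KO animals 10 and 12 in between in both. WT animals 2 and 3 also stood above the rest for the neonatal myosin Myh8, at 1.43, 1.49 and -0.71 in WT and -0.78, -0.37, -0.44 and 0.37 in KO, a gene singled out after its values were seen. Of the 9 measured heart genes, Myh6 and Nppa lay at recovered levels below 4 and the other 7 between 4 and 8. Among those 7, the heart troponin gene Tnni3 differed by -0.33 (SE 0.20). The heart list had a median difference of -0.0094, with 5 lower and 4 higher, 0 passing and 1 higher at an unadjusted p under 0.05.

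The genes used by both fibre types mostly kept to the order of the fast genes. Acta1, the skeletal actin, had the narrowest range of all 40 genes, 0.58, at -0.18, 0.20 and 0.068 in WT and -0.37, -0.38, 0.042 and -0.042 in KO (difference -0.22, SE 0.15, adjusted p = 0.761). Ttn, the giant spring of the sarcomere, was at -0.49, 0.50 and 0.28 in WT and -0.82, -0.56, 0.19 and 0.16 in KO as the mean of 3 probe sets (difference -0.35, SE 0.32). KO animals 8 and 10 and WT animal 2 were low again, and KO animals 11 and 12 lay inside the WT range. Des, the intermediate filament desmin, also made by smooth muscle, was at -0.15, 0.21 and 0.23 in WT and -1.44, -0.77, 0.25 and 0.047 in KO (difference -0.58, SE 0.38), with KO animal 8 the lowest and KO animal 11 the highest of all animals. The thin filament ruler Neb (-0.37), the titin cap Tcap (-0.17) and the muscle protein Smpx (-0.40) had SE from 0.29 to 0.36 and adjusted p from 0.814 to 0.919.

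In the calcium release machinery, Ryr1, the release channel, was at -0.18, 0.34 and 0.47 in WT and -1.41, -0.61, -0.084 and 0.16 in KO. Only KO animals 8 and 10 were clearly low, and the difference was -0.70 (SE 0.36, adjusted p = 0.676). Its voltage sensor Cacna1s (-0.60, SE 0.38), the anchor Trdn (-0.63, SE 0.33) and the junction protein Jph1 (-0.35, SE 0.27) had KO animal 8 as the lowest animal as well. Sln, the peptide that restrains the calcium pump, did not follow them: it was at -0.14, 0.74 and -0.29 in WT and -0.57, -0.31, 0.40 and 0.49 in KO, with KO animals 11 and 12 above WT animals 2 and 4 (difference -0.097, SE 0.34, adjusted p = 0.966).

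Among the 5 energy supply genes 1 had groups that did not overlap, where 5.14% of all genes were lower in KO without overlap. Ckmt2, the mitochondrial creatine kinase, was at 0.11, 0.89 and 0.40 in WT and -1.05, -0.54, -0.11 and -0.21 in KO. Every KO animal lay below every WT animal, and the difference was -0.94 (SE 0.26, 1.92-fold lower, adjusted p = 0.42), from 0.47 ± 0.39 (SD, n = 3) among WT animals to -0.48 ± 0.42 (SD, n = 4) among KO animals. Ckm, the cytosolic creatine kinase, was at -0.13, 0.44 and 0.087 in WT and -1.71, -0.73, 0.071 and -0.071 in KO (difference -0.74, SE 0.41, adjusted p = 0.699), with KO animals 11 and 12 between WT animals 2 and 4. The glycolytic enolase Eno3 (-0.73, SE 0.34) and the glycogen phosphorylase Pygm (-0.80, SE 0.54) had adjusted p of 0.642 and 0.751. Mb, the oxygen store myoglobin, was at 0.028, 0.94 and -0.68 in WT and -0.25, -0.028, -0.44 and 0.10 in KO (difference -0.25, SE 0.34). It was closer to the slow troponins in that WT animal 3 was high and WT animal 4 low. WT animal 4 was the lowest animal for Mb and Tnni1, but not for Tnnt1 and Tnnc1. The other probe set of Mb, at a level between 4 and 8, gave 0.20.

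The myogenic transcription factors, which switch on muscle genes in satellite cells and fibres, had differences smaller than their SE. Myod1, active in proliferating muscle precursors, was at -0.93, 0.19 and 0.40 in WT and -0.79, -0.33, 0.21 and 0.64 in KO (difference 0.049, SE 0.41, adjusted p = 0.988). Myog, which starts differentiation, was at -0.73, 0.21 and 0.21 in WT and -0.84, -0.49, 0.16 and 0.39 in KO (difference -0.092, SE 0.35). Myf6, the factor of mature fibres, was at -1.14, 0.25 and 0.59 in WT and -0.84, -1.23, 0.20 and 0.22 in KO (difference -0.31, SE 0.50, adjusted p = 0.915). In all 3 genes WT animal 2 and KO animals 8 and 10 were the lowest animals, so the animals split alike for every factor whatever the genotype. These lay below 0 and the others above it, but where 0 falls depends on the centring. The 3 factors were read in the same samples and are not independent of each other. The satellite cell marker Pax7, at a level between 4 and 8, ranged from -0.44 in KO animal 8 to 0.063 in KO animal 12, and Myf5 lay below 4.

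Further genes of the same tissue, listed apart from the 40, were mostly lower in KO too, with list medians from -0.64 to -0.26 beside -0.59 for the 40. None passed an adjusted p of 0.05 in limma in any of these lists (0 in each). Of all genes, 49.1% were lower in KO, 5.94% were lower at an unadjusted p under 0.05, and 5.14% were lower without overlap. The genes named from these lists are among the 4 with the smallest p in their list. Other sarcomere genes were lower in KO in 22 of 22 measured, with a median of -0.60 and 5 lower at an unadjusted p under 0.05, such as the actin-binding Xirp1 (-1.0, SE 0.34) and the actinin Actn2 (-0.69, SE 0.28). Other muscle energy genes were lower in 16 of 16, with a median of -0.64 and 9 at that p, such as the purine cycle enzyme Adssl1 (-0.75, SE 0.18, adjusted p = 0.355) and the muscle cytochrome oxidase subunit Cox7a1 (-0.75, SE 0.23), both without overlap of the groups. Other excitation and contraction genes were lower in 14 of 15 (median -0.48, 4 at that p), genes of muscle atrophy and load in 9 of 9 (median -0.50, 0 at that p), and membrane and neuromuscular junction genes in 12 of 13 (median -0.26, 1 at that p). In the list of satellite cell and regenerating fibre genes 12 of 14 were lower (median -0.41, 4 at that p). Without KO animals 8 and 10 the median turned positive for membrane and neuromuscular junction genes (0.070, 6 of 13 lower) and for genes of muscle atrophy and load (0.032, 4 of 9 lower). It was then -0.20 for other sarcomere genes, -0.15 for other excitation and contraction genes, -0.27 for other energy genes and -0.23 for satellite cell and regenerating fibre genes.

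Other tissues of the skin differed among themselves, and the endothelial genes described above had the same median as the fast fibre genes, -0.68. Smooth muscle genes had a median difference of -0.35, 11 of 12 being lower, and their animal medians were -0.074, 0.33 and 0.32 in WT and 0.00015, -0.088, -0.46 and 0.12 in KO, with KO animal 11 the lowest. Acta2, the smooth muscle actin, was -0.37 (SE 0.16) and the smooth muscle motor Myh11 -0.085 (SE 0.22). Schwann cell genes had a median of 0.063 (4 of 8 lower) and epidermal keratinocyte genes a median of -0.025 (6 of 11 lower). None of these lists held a gene that passed. At an unadjusted p under 0.05, 3 of 12 smooth muscle, 1 of 8 Schwann cell and 0 of 11 keratinocyte genes were lower, beside 5.94% of all genes. Without KO animals 8 and 10 the medians were -0.43 for smooth muscle, 0.0023 for Schwann cell and 0.29 for keratinocyte genes, the last with 1 of 11 lower.

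Where several probe sets read a gene, those with the lower recovered level often gave the smaller difference. Over the 67 probe sets the median difference was -0.55 for the 45 at a level of at least 8, -0.39 for the 18 between 4 and 8, and -0.13 for the 4 below 4, and 63 of the 67 were below 0. Trdn spanned -0.69 to -0.12 over 6 probe sets and Des -0.58 to -0.088 over its pair. Ttn did not follow this order: its lowest values, -0.72 and -0.64, came from probe sets between 4 and 8, and those at a level of at least 8 lay between -0.43 and -0.30.

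**Figure D5:**
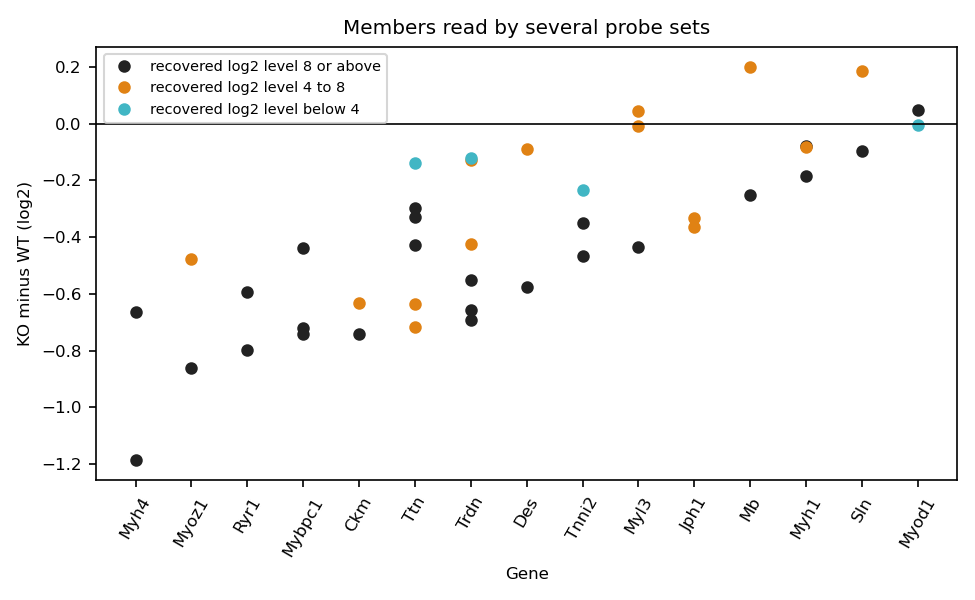
Difference between KO and WT in log2 units (vertical axis) of each probe set of the 15 muscle genes read by more than 1 probe set (horizontal axis), coloured by recovered level band. Probe sets below 4 sit between -0.23 and -0.0040, and those at 8 or above reach -1.19 in Myh4.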

How the data were processed

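The deposited log2 values came from GCRMA, per the submitters' processing notes, for 1-colour arrays labelled with biotin, per the labels' protocols. Version and chip definition are not given in the sources used here, and base 2 is assumed, the scale GCRMA returns. The values are centred per probe set: in 72.5% of probe sets a neighbouring pair of values was mirrored around 0 within 1e-06. The baseline is unknown and cancels in each difference, but counts of values above or below 0 depend on it. KO animals 11 and 12 form such a mirrored pair for Tnnt3 and Actn3, for example. Values near 0 in these animals can thus come from the centring and give no level.

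Of 45101 probe sets, 64 controls were left out. Single symbols were held by 34945, several by 932 and none by 9160. A gene's value was the mean of its single-symbol probe sets in the highest recovered level band. This band comes from the rounding step of the stored values and reflects the lowest array or the baseline. limma 3.58.1 in R 4.3.3 (lmFit, eBayes) compared 4 KO with 3 WT animals without covariates, with Benjamini-Hochberg adjustment over 18193 genes and a threshold of 0.05. Whether animals were littermates is not stated. The fit and the level bands were tested on simulated data. Level bands, counts and motifs were computed in Python 3.11.15 (pandas 2.3.3, numpy 2.4.6); matplotlib 3.10.9 made the plots.

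The 40 genes, their classes and the 13 lists (177 of 195 genes measured) were chosen with earlier results of these data known. All 40 are named, a fixed subset with each animal's value, and up to 4 genes a list by smallest p with its defining genes. Other settings tried were quantile normalization, a subtraction of array medians, a trended or robust eBayes, array weights, fewer probe sets, other gene values, a level filter, a covariate from the hair genes, and animals left out.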

Additional observations from a re-analysis of the deposited data

Results flagged for a closer look

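Of 44 sets of KO values checked (the 40 genes and the 4 class medians), 1 had an animal far from the others. For Myh2 the gap between KO animal 10, at -2.17, and the nearest KO animal was 0.84 of the range of the 4 KO animals, above the critical value of Dixon's test. Its other KO values were -0.22, 0.16 and -0.16. Chance alone flags about 1 in 20 groups.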

How the results depend on the processing

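No paired analysis was possible because the groups share no animal numbers. Of 714 differences of single muscle genes under 18 alternatives, 681 kept their direction and, as in the report, did not pass, 33 changed sign in 12 genes, and 0 passed (smallest adjusted p = 0.121). Without KO animals 8 and 10 the sign changed for Tcap (0.25), Ttn (0.081), Neb (0.080), Des (0.052), Smpx (0.15), Sln (0.35), Myog (0.38) and Myf6 (0.31). With the covariate from the hair genes it changed for Tcap (0.17), Ttn (0.042), Neb (0.036), Smpx (0.081), Sln (0.21), Myog (0.33) and Myf6 (0.31). It also changed for Tcap (0.027) and Myog (0.23) after quantile normalization, for Myl3 (0.046) without _x_at, _s_at and _a_at probe sets, which left 34 of the 40 genes, and for Sln (0.044) with the mean of all its probe sets. Leaving out single animals, differences ranged from -0.23 to 0.054 for Myh1, -0.37 to 0.014 for Tcap, -0.29 to 0.22 for Sln, -0.64 to 0.17 for Mb, -0.36 to 0.31 for Myod1, -0.41 to 0.12 for Myog and -0.83 to 0.036 for Myf6. The causes were not tested.

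Leaving out 1 animal in turn, the median difference ranged from -0.90 to -0.40 for fast, -0.98 to -0.30 for slow and -0.70 to -0.25 for shared genes and from -0.41 to 0.12 for regulators, 35 to 40 genes were lower in KO, and 3 to 24 had no overlap. Without KO animals 8 and 10 the fast median was -0.16. Over all 45037 probe sets, 20 passed an adjusted p of 0.05 (40 at 0.10), 13 after quantile normalization, 68 with array weights, 11 without _x_at, _s_at and _a_at probe sets, 38 with the hair covariate, 6 without KO animals 8 and 10, and 5 to 19 without 1 animal. At an unadjusted p of 0.05 they numbered 3329, 5948 with array weights and 2327 to 4255 without 1 animal. Overlap of groups was not counted under the covariate. The array weight of KO animal 10 was 3.38, against 0.43 to 1.57 for the others. Signal over background could be judged only through the level bands.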

Other observations

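Further developmental isoforms, picked after their values were seen, shared the high values of WT animals 2 and 3 seen in the slow troponins. Tnnt2, the troponin T of heart and of developing muscle, was at 0.57, 0.59 and -0.67 in WT and -1.07, -0.11, -0.81 and 0.11 in KO. Myl4, the light chain of embryonic muscle and atrium, was at 0.46, 0.47 and -0.49 in WT and -0.75, -0.41, -0.070 and 0.070 in KO. Their differences were -0.64 (SE 0.39) and -0.44 (SE 0.28), and neither passed (adjusted p = 0.729 and 0.743). WT animal 4 and KO animal 8 were low for both, while KO animal 11 was low for Tnnt2 and near 0 for Myl4.

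Fbp2, the muscle fructose bisphosphatase, was highest in WT animal 4, at 1.18, and KO animal 11, at 0.91, with WT animal 3 at -0.39. WT animal 4 and KO animal 11 were also the highest for Ankrd2 (2.23 and 1.13) and Csrp3 (1.28 and 0.89), from the list of muscle atrophy and load genes. The load-responsive Ankrd1 ranged from -1.40 in KO animal 10 to 1.69 in WT animal 4, with a mean difference of -0.54 (SE 0.66).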
